A study of Mus musculus with 13 samples.

Results

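The annexins and the S100 proteins that bind them were followed here as a set of 10 genes: Anxa1, Anxa2, Anxa3, Anxa4, Anxa5, Anxa6, Anxa7 and Anxa11, and the partners S100a10 and S100a11. The genes were chosen by name out of the 48795 genes of the deposited table, and all 10 passed the filter on low counts in each comparison. RNA was sequenced from the right brain hemisphere of 13 mice of the C57BL/6J strain background at postnatal day 11 (P11). The 5 nlsYAP5SA mice had the genotype NexCre +/- YAP5SAnls +/-, in which Cre recombinase, placed in the Neurod6 (NEX) locus, switches on a transgene for nuclear YAP1 that cannot be inhibited by phosphorylation. The 5 control mice were their unaffected littermates and carried the same silent transgene without Cre (NexCre -/- YAP5SAnls +/-). The 3 C57BL/6 mice were wild type and not littermates, and they carried neither the transgene nor Cre. The olfactory bulb and the cerebellum were not part of the dissected tissue. Cre is expressed from the NEX locus and acts in the neuronal precursors of that lineage, so each library mixes cells that carry active nlsYAP5SA with cells that do not. In such bulk tissue a change in the number of cells of a type and a change in RNA per cell cannot be told apart.

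Annexins are cytosolic proteins that bind negatively charged phospholipids when calcium rises. They attach vesicles and the actin cytoskeleton to membranes and take part in membrane fusion, trafficking and the repair of torn plasma membranes. S100 proteins are small calcium-binding proteins that work as dimers, and several of them clasp the free amino-terminal tail of an annexin. S100A10, also called p11, holds ANXA2 in a complex at the cell surface that binds plasminogen and its activator, and S100A11 binds ANXA1. In the brain ANXA1 is known from microglia, ependymal cells and vessels, ANXA2 from glia and tumour cells, and ANXA5 from the binding of phosphatidylserine on dying cells. YAP1 has no DNA-binding domain and reaches its target genes through TEAD factors, often at sites near those of AP-1.

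The stretches upstream of 3 of the genes that rose in nlsYAP5SA mice are shown because they hold the letters of a TEAD or an AP-1 site. RefSeq start sites of GRCm38.p6 were found for 7 of the 10 genes, with 9 windows in all. No windows were found for Anxa3, Anxa6 and S100a10. The 250 bases before each start were searched on both strands for GGAATG, the core of the TEAD motif, and for TGANTCA, the core of the AP-1 motif. GGAATG was present in 12.6% of all 32851 windows of this length and TGANTCA in 6.75%. The capitals below mark those letters, each line reads 5′ to 3′ in the direction of the gene, and bases that GENCODE annotates as exon are left out except in Anxa1.
Anxa1, minus strand, chr19:20390892-20390917: tgcactgaacCATTCCtgtgaggaat
Anxa2, plus strand, chr9:69453433-69453619: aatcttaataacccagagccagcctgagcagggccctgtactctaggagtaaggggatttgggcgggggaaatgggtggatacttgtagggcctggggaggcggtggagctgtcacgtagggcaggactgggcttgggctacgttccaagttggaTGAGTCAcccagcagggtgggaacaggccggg
S100a11, plus strand, chr3:93520246-93520487: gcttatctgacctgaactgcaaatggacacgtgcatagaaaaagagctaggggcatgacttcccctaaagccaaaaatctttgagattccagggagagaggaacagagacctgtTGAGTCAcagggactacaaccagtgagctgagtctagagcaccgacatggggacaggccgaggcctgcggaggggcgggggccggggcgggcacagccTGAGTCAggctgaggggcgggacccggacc
The window of Anxa1 was the only one of the 9 with a TEAD match, in the reverse orientation, 236 to 231 bases before the RefSeq start. All of that window lies in the 5′ part of a longer GENCODE first exon, so 26 bases around the match are shown. The windows of Anxa2 and S100a11 were the only ones with an AP-1 match, 95 to 89 bases before the start of Anxa2, and both 136 to 130 and 38 to 32 bases before the start of S100a11. The windows of Anxa4, Anxa5, Anxa7 and Anxa11 held neither run of letters. A match is a run of letters and was not tested for binding.

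The libraries held between 20871566 and 25524349 estimated counts each, and these totals overlapped between the groups. Levels are given as CPM, counts scaled by library size and edgeR's TMM factor. Yap1 stood at 20.1 to 22.4 CPM in control and 22.5 to 26.4 CPM in nlsYAP5SA mice (adjusted p = 0.0361), and the count does not separate the transgene from the endogenous gene. Neurod6, the locus that carries Cre in nlsYAP5SA mice, stood at 92.0 CPM or more in every control and at 56.9 CPM or less in every nlsYAP5SA mouse. Markers of neurons, astrocytes, oligodendrocytes and microglia were found in all libraries, while 5 of 6 neutrophil markers were at 0 in 7 or more of the 13. Gene positions are those of GENCODE M21 on GRCm38. The exons of Anxa2, Anxa3, Anxa4 and Anxa11 share 75 to 113 bases with other annotated genes, and none of these other genes had more than 3 counts in a library. Groups were compared by the quasi-likelihood test of edgeR over every gene that passed the filter, and a gene was called where its p, adjusted by the method of Benjamini and Hochberg, was at most 0.05. The labels do not assign the littermates to litters, nor do they give the sex of single mice, and p-values measure the spread between these samples. The sexes were not balanced in the libraries. The summed level of 4 Y-linked genes (Ddx3y, Eif2s3y, Kdm5d and Uty) was 91.6 to 131 CPM in all 5 control mice and 129 and 135 CPM in nlsYAP5SA mice 3 and 4, but at most 0.0936 CPM in nlsYAP5SA mice 1, 2 and 5. In C57BL/6 mice it was 119 and 143 CPM in 2 mice and 0 in mouse 2. No control mouse lacked Y-linked RNA, so among mice without it nlsYAP5SA and control mice could not be compared.

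In nlsYAP5SA compared with control mice, 5 of the 10 genes rose and 1 fell. Over all 16315 genes tested, the calls made up 7.36% higher and 3.44% lower. The genes called higher were Anxa1, S100a11, Anxa3, Anxa2 and Anxa11, in order of their fold change, and the gene called lower was Anxa6. Anxa4, Anxa5, Anxa7 and S100a10 did not pass the test. In Anxa1, Anxa2, Anxa3, Anxa11 and S100a11 every nlsYAP5SA mouse stood above every control mouse, which held for 6.36% of all genes tested. No member had every nlsYAP5SA mouse below every control mouse, as 3.75% of all genes did. With the Y-linked level as a covariate, 4 of the 10 genes were called higher and 0 lower. The same numbers were found among the mice with Y-linked RNA alone, 2 nlsYAP5SA against 5 control mice, a selection made after these levels were seen. In both fits the calls of Anxa1, S100a11, Anxa3 and Anxa2 remained and those of Anxa11 and Anxa6 were lost. The median log2 fold change of the 10 genes was 0.39, and that of all genes tested was -0.005.

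**Figure D1:**
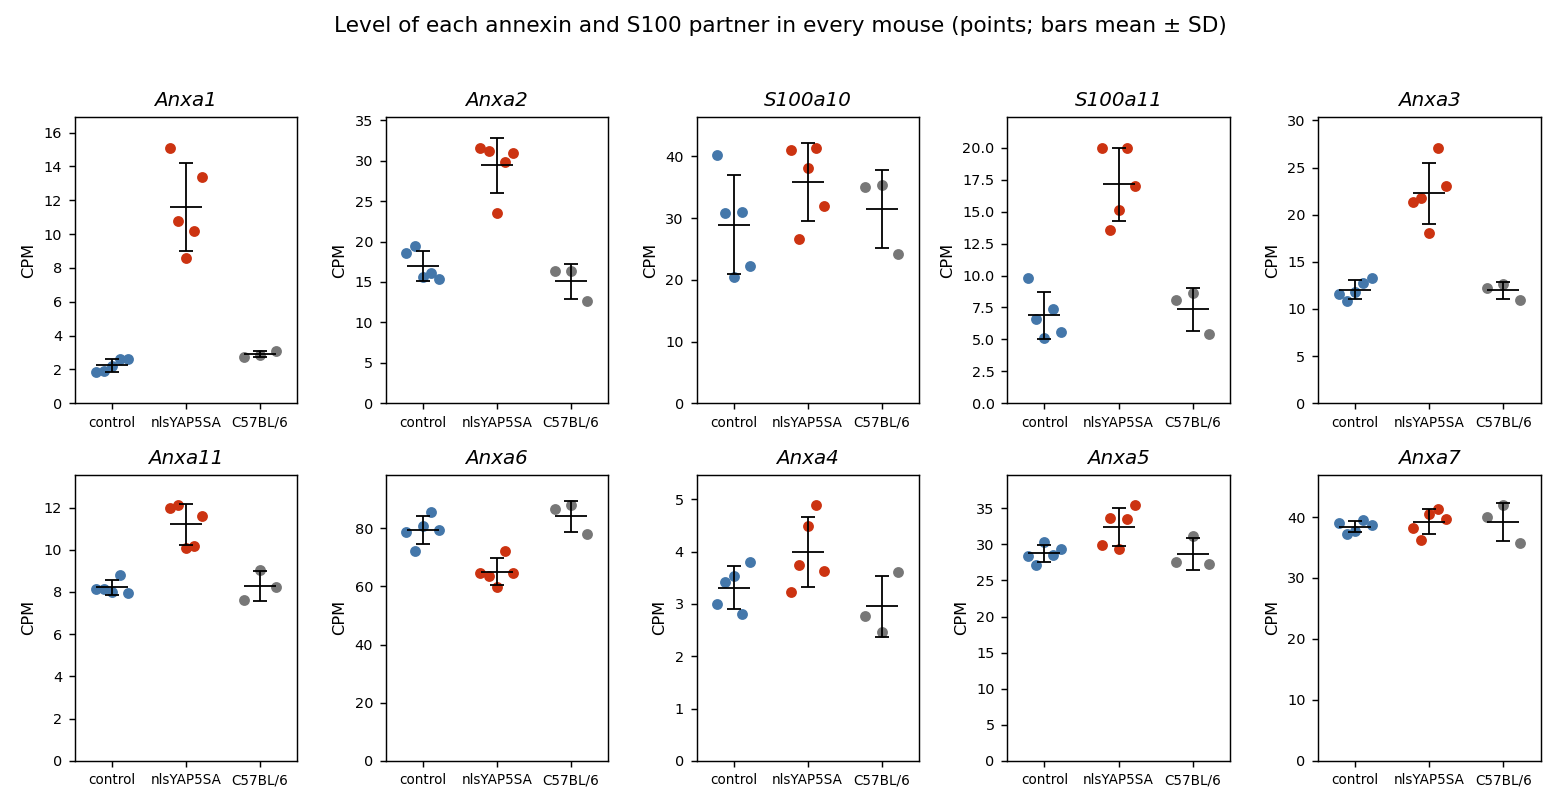
CPM (vertical axes, each from 0) of the 10 genes in every mouse, by group on the horizontal axes; coloured points are mice and black bars the mean ± SD of 5 control, 5 nlsYAP5SA and 3 C57BL/6 mice. Anxa1 lies between 8.57 and 15.1 CPM in nlsYAP5SA mice and at 2.63 CPM or less in controls, while the points of S100a10 and Anxa7 overlap between the groups.

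Anxa1 (chr19:20373428-20390944, minus strand, 13 exons) encodes a mediator of the resolution of inflammation that signals through formyl peptide receptors and is induced by glucocorticoids. Its level was 1.85, 1.89, 2.23, 2.63 and 2.61 CPM in control mice 1 to 5 and 15.1, 10.8, 8.57, 10.2 and 13.4 CPM in nlsYAP5SA mice 1 to 5. The C57BL/6 mice had 2.73, 2.85 and 3.08 CPM. The lowest nlsYAP5SA mouse was thus far above the highest mouse of either other group, and among the 10 genes Anxa1 had the largest fold change, 5.21-fold. On the log2 scale this was 2.38 with a standard error of 0.17 (adjusted p = 3.04e-06, edgeR). The control libraries held 45 to 63 counts of Anxa1 each and the nlsYAP5SA libraries 199 to 336. The call held in all 22 alternative fits, with log2 fold changes between 2.07 and 2.47.

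S100a11 (chr3:93520488-93526287, plus strand, 3 exons) encodes the calcium-dependent partner of ANXA1. It stood at 9.79, 6.61, 5.10, 7.40 and 5.60 CPM in control mice 1 to 5, at 20, 13.6, 15.1, 20 and 17.0 CPM in nlsYAP5SA mice 1 to 5, and at 8.05, 8.61 and 5.43 CPM in C57BL/6 mice. The nlsYAP5SA mice lay above all others, control mouse 1 came nearest to them, and control and C57BL/6 mice overlapped. The gene was 2.49-fold higher in nlsYAP5SA mice, a log2 fold change of 1.32 with a standard error of 0.17 (adjusted p = 0.000334, edgeR). A processed pseudogene, S100a11-ps, could share reads with S100a11, and it was given 0 counts in all 13 libraries. S100a10 is its neighbour on chromosome 3, on the same strand.

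Because ANXA1 and S100A11 bind each other, the ratio of their counts was compared between the groups. The log2 ratio of S100a11 to Anxa1 was 1.59 ± 0.53 (SD, n = 5) in control, 0.57 ± 0.30 (SD, n = 5) in nlsYAP5SA and 1.32 ± 0.44 (SD, n = 3) in C57BL/6 mice. All 5 nlsYAP5SA mice lay below all 5 control mice, so Anxa1 rose more than S100a11. The two-sided exact permutation test over all divisions of the mice gave p = 0.00794, the smallest it allows, and an adjusted p of 0.0476 over the 6 ratio comparisons. Leaving out control mouse 1 raised the adjusted p of this exact test to 0.0952, and leaving out any nlsYAP5SA mouse raised it to between 0.0635 and 0.0952, with the difference still between -0.82 and -1.11. The transcript of S100a11 has 511 bases and that of Anxa1 1674. The ratio was not adjusted for each library's share of short transcripts, given below. Control mouse 1, with the largest such share among controls, had the highest ratio, 2.39. Nor was the ratio adjusted for Y-linked RNA. The nlsYAP5SA mice that have it, mice 3 and 4, had the highest ratios of their group, 0.813 and 0.97.

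Anxa2 (chr9:69453620-69491795, plus strand, 13 exons) encodes the annexin that carries S100A10 to the plasma membrane. Its level was 18.6, 19.4, 15.6, 16.1 and 15.4 CPM in the controls, 31.6, 31.2, 23.5, 29.8 and 31.0 CPM in nlsYAP5SA mice and 16.3, 16.3 and 12.6 CPM in C57BL/6 mice. Every nlsYAP5SA mouse was above every other mouse, with nlsYAP5SA mouse 3 standing apart from the rest of its group. Anxa2 was 1.74-fold higher in nlsYAP5SA than in control mice, a log2 fold change of 0.80 with a standard error of 0.10 (adjusted p = 0.000213, edgeR).

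S100a10 (chr3:93555080-93564643, plus strand, 3 exons) encodes the partner of ANXA2, which differs from other S100 proteins in holding its open form without calcium. It stood at 40.3, 30.8, 20.4, 31.0 and 22.3 CPM in control mice 1 to 5 and at 41.0, 26.7, 38.1, 41.4 and 31.9 CPM in nlsYAP5SA mice 1 to 5. The C57BL/6 mice had 35.0, 35.3 and 24.2 CPM. These ranges overlapped widely, and the log2 fold change of 0.32 did not pass the test (adjusted p = 0.307, edgeR). Its 95% confidence interval ran from -0.07 to 0.70, so a rise as large as that of Anxa11 lies within it. The standard error, 0.18, was the largest among the 10 genes.

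The spread of S100a10 within the groups moved with that of S100a11. Over the 13 mice, the deviations of both genes from their group means had a Pearson correlation of 0.93, given as a description, and both genes are short and come from the same libraries. The same libraries also differed in how many of their counts fell on short transcripts. This share was taken over 2474 nuclear protein-coding genes with transcripts under 1000 bases, with the 10 genes left out. It was highest among controls in control mouse 1 at 3.44% and lowest in control mouse 3 at 2.36%, the mice with the highest and the lowest level of both S100 genes. It ran from 2.36% to 3.44% in control, from 2.38% to 2.83% in nlsYAP5SA and from 2.21% to 3.42% in C57BL/6 mice. Once GC content and length were offset in the fit, S100a10 was called higher in nlsYAP5SA mice (log2 fold change 0.42, adjusted p = 0.0378, edgeR). With the short-transcript share as a covariate, an alternative chosen after the S100a10 and S100a11 values were seen, the log2 fold change was 0.52 (adjusted p = 0.00209, edgeR). What sets the share of short transcripts was not tested.

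**Figure D2:**
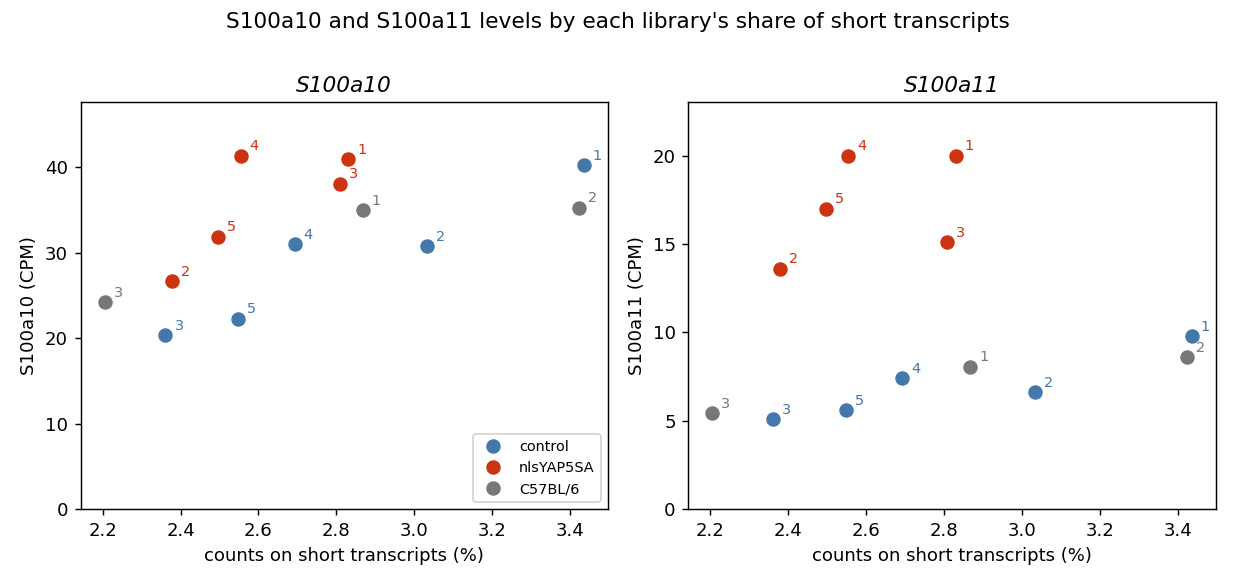
Levels of S100a10 (left) and S100a11 (right) in CPM against the percent of each library's counts on transcripts under 1000 bases; each point is a mouse, numbered by replicate. Among control and C57BL/6 mice the libraries with the lowest share have the lowest levels and those with the highest share the highest, and the nlsYAP5SA points of S100a11 lie above all other mice.

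The log2 ratio of S100a10 to Anxa2 was 0.73 ± 0.30 (SD, n = 5) in control, 0.27 ± 0.37 (SD, n = 5) in nlsYAP5SA and 1.06 ± 0.10 (SD, n = 3) in C57BL/6 mice. The mean ratio was lowest in nlsYAP5SA mice, but it overlapped between nlsYAP5SA and control mice (difference -0.45, exact permutation test, two-sided, p = 0.0714, adjusted p = 0.107). All 5 nlsYAP5SA mice lay below all 3 C57BL/6 mice (difference -0.78, exact permutation p = 0.0357, adjusted p = 0.107). With 5 against 3 mice this exact permutation test cannot go below p = 0.0179, and with 5 against 5 not below 0.00794. The difference between C57BL/6 and control mice was 0.33 (exact permutation p = 0.143, adjusted p = 0.171). Mice 3 and 4, the nlsYAP5SA mice with Y-linked RNA, had the highest ratios of their group, 0.699 and 0.475. The ratio was not tested with Y-linked RNA taken into account.

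**Figure D3:**
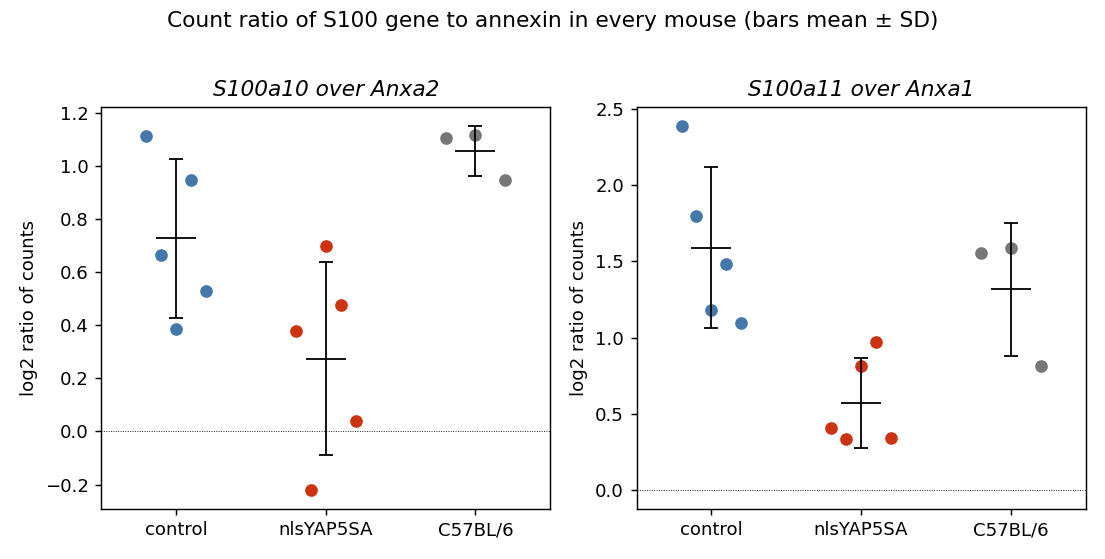
Log2 ratio of counts of S100a10 to Anxa2 (left) and of S100a11 to Anxa1 (right) in every mouse, with black bars for the mean ± SD of 5 control, 5 nlsYAP5SA and 3 C57BL/6 mice. The right panel shows all nlsYAP5SA mice at 0.97 or less and all controls at 1.09 or more, and the left panel shows overlap between those groups.

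Anxa3 (chr5:96793339-96845966, plus strand, 13 exons) encodes an annexin known from myeloid granules and from growing vessels. It stood at 11.6, 10.8, 11.8, 12.8 and 13.3 CPM in control, at 21.3, 21.8, 18.1, 27.1 and 23.1 CPM in nlsYAP5SA and at 12.2, 12.7 and 11.0 CPM in C57BL/6 mice. The nlsYAP5SA mice lay above all others, and control and C57BL/6 mice overlapped. Anxa3 was 1.86-fold higher in nlsYAP5SA than in control mice, a log2 fold change of 0.90 with a standard error of 0.10 (adjusted p = 0.000109, edgeR).

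Anxa11 (chr14:25842156-25886804, plus strand, 15 exons) encodes an annexin with a long, disordered tail that tethers RNA granules to lysosomes and binds S100A6. Its control levels were 8.15, 8.15, 8.01, 8.82 and 7.97 CPM, and its nlsYAP5SA levels were 12, 12.1, 10.1, 10.2 and 11.6 CPM. The C57BL/6 mice had 7.64, 9.04 and 8.22 CPM. The increase was small but free of overlap, 1.37-fold or 0.46 on the log2 scale with a standard error of 0.08 (adjusted p = 0.00263, edgeR). With a covariate for the summed level of 4 Y-linked genes, which stands in for the sex of the mice, the log2 fold change was 0.32 and no longer called (adjusted p = 0.0856, edgeR). The nlsYAP5SA mice with Y-linked RNA, mice 3 and 4, had the lowest Anxa11 levels of their group, and among mice with Y-linked RNA alone the log2 fold change was 0.31 (adjusted p = 0.23, edgeR).

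Anxa6 (chr11:54979108-55033445, minus strand) encodes the longest annexin, with 26 exons, which acts on endosomes and cholesterol-rich membrane. It was the only one of the 10 called lower. Its level was 78.6, 72.1, 80.8, 85.7 and 79.4 CPM in control, 64.7, 63.7, 59.6, 72.3 and 64.7 CPM in nlsYAP5SA and 86.5, 87.8 and 78.0 CPM in C57BL/6 mice. The groups met where nlsYAP5SA mouse 4, at 72.3 CPM, lay beside control mouse 2, at 72.1 CPM. The log2 fold change was -0.28 with a standard error of 0.06, or 0.826-fold (adjusted p = 0.00981, edgeR). With the Y-linked covariate it was -0.26 and no longer called (adjusted p = 0.149, edgeR), and among mice with Y-linked RNA alone it was also -0.26 (adjusted p = 0.313, edgeR).

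The remaining 3 annexins, Anxa4 (chr6:86736840-86793584), Anxa5 (chr3:36448923-36475894) and Anxa7 (chr14:20455260-20480133), all on the minus strand, did not pass the test. Anxa5, whose product is used to stain phosphatidylserine on dying cells, ranged from 27.2 to 30.4 CPM in control and from 29.4 to 35.4 CPM in nlsYAP5SA mice (log2 fold change 0.18, 95% confidence interval 0.05 to 0.32, adjusted p = 0.0871, edgeR). Anxa4, known from epithelial membranes, ranged from 2.80 to 3.80 CPM and from 3.23 to 4.88 CPM in the same order (0.28, interval -0.01 to 0.58, adjusted p = 0.227). Anxa7, whose product drives the fusion of secretory vesicles, ranged from 37.2 to 39.5 CPM and from 36.2 to 41.4 CPM (0.04, interval -0.07 to 0.15, adjusted p = 0.681). Each of these genes overlapped between the groups, and the C57BL/6 mice, at 27.3 to 31.2 CPM of Anxa5, 2.47 to 3.61 CPM of Anxa4 and 35.8 to 41.9 CPM of Anxa7, overlapped with the controls. The interval of Anxa7 excludes a change as large as that of any called member, while the interval of Anxa4 does not.

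The comparison of C57BL/6 with control mice sets mice without the transgene beside mice that carry it silent. Between C57BL/6 and control mice 0 of the 10 genes were called by edgeR, against 0.169% of all genes, and 0 by DESeq2's Wald test. An unadjusted p of 0.05 or less was reached by 1 of them, Anxa1, with a log2 fold change of 0.38 and a 95% confidence interval of 0.005 to 0.75 (adjusted p = 1, edgeR). Its p ranked 591 among the 16546 genes tested. The 3 C57BL/6 values of Anxa1 lay above all 5 control values, as 1.78% of all genes tested did, by a margin smaller than the distance to the lowest nlsYAP5SA mouse. The other 9 genes had log2 fold changes between -0.17 and 0.13. With 3 C57BL/6 mice the intervals were wide for the S100 genes, from -0.36 to 0.63 for S100a10 and from -0.41 to 0.61 for S100a11.

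Between nlsYAP5SA and C57BL/6 mice, 4 members were called higher and 1 lower, against 4.16% and 2.22% of all genes tested. This comparison uses the same nlsYAP5SA mice as the first and is therefore not independent of it. The log2 fold changes were 1.99 for Anxa1 (adjusted p = 0.000504, edgeR), 1.21 for S100a11 (0.00447), 0.96 for Anxa2 (0.00232), 0.89 for Anxa3 (0.00328) and -0.38 for Anxa6 (0.0146). Anxa11 had a log2 fold change of 0.42, just outside the threshold (adjusted p = 0.0521), with every nlsYAP5SA mouse above every C57BL/6 mouse, which held for 8.69% of all genes tested. S100a10, at 0.17, was not called (adjusted p = 0.6). The call of Anxa6 was lost when nlsYAP5SA mouse 5, C57BL/6 mouse 1 or C57BL/6 mouse 2 was left out, with adjusted p-values of 0.0551, 0.0857 and 0.0623 from edgeR. With a block for the replicate number 0 members were called, and 26 genes in all. Among mice with Y-linked RNA alone, 2 in each group, 1 member was called, Anxa1, with a log2 fold change of 1.68 (adjusted p = 0.0351, edgeR), and S100a11, Anxa2 and Anxa3 had log2 fold changes of 1.38, 0.88 and 0.95 (adjusted p = 0.092, 0.161 and 0.179). Over all genes tested 47 were called in that fit, against 1061 with all mice.

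**Figure D4:**
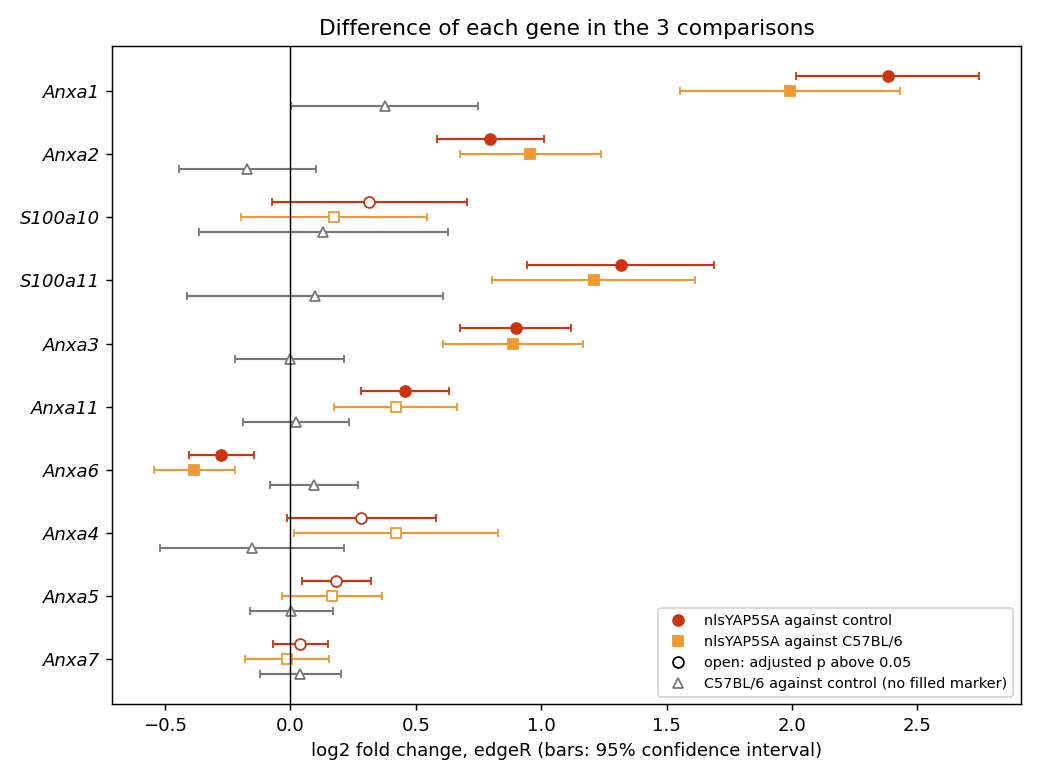
Log2 fold change of each gene (horizontal axis) in nlsYAP5SA against control (circles), nlsYAP5SA against C57BL/6 (squares) and C57BL/6 against control (triangles), with 95% confidence intervals from edgeR; filled markers passed an adjusted p of 0.05. Anxa1 lies at 2.38 and 1.99 against the control and C57BL/6 mice, Anxa6 lies below 0 in both, and no triangle is filled.

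Levels of different genes can be compared after division by transcript length, here as CPM per 1000 bases of the longest GENCODE transcript. In control mice S100a10 was the highest at 42.2 ± 11.6 (SD, n = 5), followed by Anxa6 at 31.9 ± 1.96, with ranges that overlapped. Anxa5 at 16.6 ± 0.69, S100a11 at 13.5 ± 3.61, Anxa7 at 13.2 ± 0.33 and Anxa2 at 11.8 ± 1.28 formed a middle group in which neighbours overlapped. Anxa3 at 7.56 ± 0.61 and Anxa11 at 3.43 ± 0.14 each stood apart from their neighbours, and Anxa4 at 1.63 ± 0.20 overlapped with Anxa1, the lowest at 1.34 ± 0.22. On this measure control mice held the partner S100a10 well above Anxa2, and S100a11 well above Anxa1. The S100 transcripts are short, at 685 and 511 bases, and the division makes no allowance for how well short transcripts are recovered.

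In nlsYAP5SA mice the order of levels per length changed. S100a11, at 33.5 ± 5.62 (SD, n = 5), came to overlap with both S100a10 at 52.3 ± 9.29 and Anxa6 at 26.1 ± 1.84. Anxa2 at 20.3 ± 2.33 stood next to Anxa5 at 18.7 ± 1.51, and these overlapped. Anxa1 moved from the last place to the eighth at 6.92 ± 1.55, apart from Anxa11 at 4.68 ± 0.41 below it. Anxa4 was then the lowest at 1.97 ± 0.33. The C57BL/6 mice kept the control order down to Anxa11, with Anxa1 at 1.72 ± 0.11 (SD, n = 3) overlapping Anxa4 at 1.45 ± 0.29 in the last places.

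**Figure D5:**
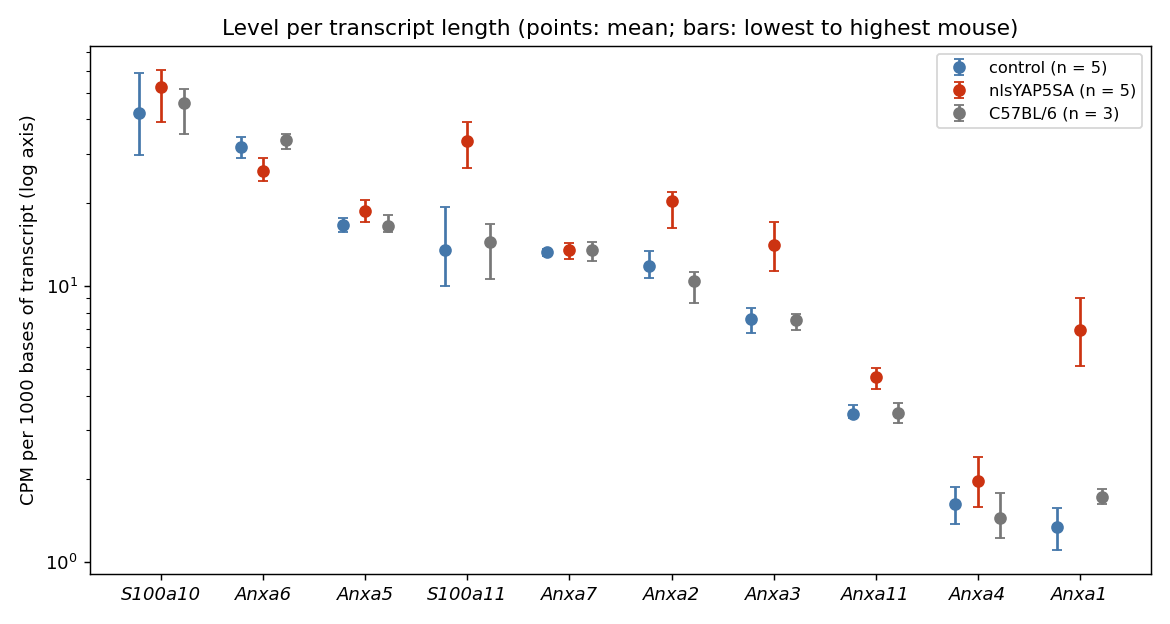
Level of each gene in CPM per 1000 bases of transcript on a log axis, with points for the mean and bars from the lowest to the highest of 5 control, 5 nlsYAP5SA and 3 C57BL/6 mice; genes are ordered by their control level. S100a10 is the highest in each group, and the Anxa1 point moves from 1.34 in control to 6.92 in nlsYAP5SA mice.

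Markers of several cell types moved with these results. The summed level of 8 microglial markers was 327 to 406 CPM in control, 458 to 601 CPM in nlsYAP5SA and 339 to 401 CPM in C57BL/6 mice, and 6 of the 8 were called higher, among them C1qa, a complement gene, with a log2 fold change of 1.18, while P2ry12 and Fcrls were not called. Of 7 astrocyte markers 4 were called higher, led by Gfap, a filament protein of reactive astrocytes, at 2.06, and their sum was 1630 to 1960 CPM in control, 2600 to 3010 CPM in nlsYAP5SA and 1760 to 1890 CPM in C57BL/6 mice. Among 7 ependymal markers Foxj1, a regulator of motile cilia, was called higher at 0.78, and the sum was 16.1 to 31.8 CPM in control, 28.4 to 33.8 CPM in nlsYAP5SA and 21.9 to 24.9 CPM in C57BL/6 mice. The 8 endothelial markers split in direction. Cldn5 at -0.44 and Cdh5 at -0.45 were called lower, Slco1a4 and Ly6c1 had log2 fold changes of 0.57 and 0.48 and were not called (adjusted p = 0.0679 and 0.113, edgeR), and the sum was 223 to 265 CPM in control, 198 to 254 CPM in nlsYAP5SA and 249 to 262 CPM in C57BL/6 mice. The part of these cell types in the annexin levels was not tested.

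Of the 7 tested border macrophage and monocyte markers 3 were called higher, Cd163, Ccr2 and F13a1, with sums of 17.8 to 30.0 CPM in control, 26.2 to 45.1 CPM in nlsYAP5SA and 21.7 to 25.0 CPM in C57BL/6 mice. Mural cell markers split, with Acta2 at 1.23 and Tagln at 1.09 called higher and Rgs5 and Kcnj8 called lower, and the sum of all 7 was 246 to 321 CPM in control, 177 to 279 CPM in nlsYAP5SA and 288 to 321 CPM in C57BL/6 mice. Of 8 fibroblast markers Ogn and Col1a2 were called higher and Lum lower, with sums of 340 to 475 CPM in control, 323 to 508 CPM in nlsYAP5SA and 409 to 486 CPM in C57BL/6 mice. Ttr, which marks choroid plexus, ran from 0.827 to 218 CPM among controls and from 0.784 to 274 CPM among nlsYAP5SA mice, and Folr1 was the 1 of 7 choroid plexus markers called higher, at 2.2. All 7 choroid plexus markers had positive log2 fold changes, with a median of 0.86. The level of Ttr as a covariate changed no call of a member in either comparison with nlsYAP5SA mice. Of the glial and neuronal lists, Gpr17 and Olig1 of 5 oligodendrocyte precursor markers and Neurod6 of 6 excitatory neuron markers were called lower, and the oligodendrocyte and inhibitory neuron markers did not pass the test, with 5 of 6 and 2 of 5 at an unadjusted p of 0.05 or less. At least 3930 of the 16315 genes tested reached such an unadjusted p. All 6 oligodendrocyte markers had negative log2 fold changes, with a median of -0.54.

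Genes whose levels varied most like those of the called members were found from deviations from the group means over the 13 mice, among 13450 genes. The best of so many correlations is high by the search itself, and all values come from the same libraries, so they are given as a description. The genes most like Anxa3 included Bin2 (Pearson r 0.97), known from microglia and other leukocytes, and Tdrp (0.92). Anxa6 also had Bin2 first (0.90), then Prpf3 and Sh2b3, and Anxa3 and Anxa6 had a correlation of 0.87 with each other, although Anxa3 was called higher and Anxa6 lower in nlsYAP5SA mice. The genes most like Anxa1 were St6gal1 (0.91), Pdk4 (0.87) and AU023762 (0.86), and those most like Anxa2 were Ddx39 (0.93), Tapbpl (0.90) and Vim (0.87), an intermediate filament gene of glia and mesenchymal cells. For S100a11 they were Ints11 (0.96), Ercc2 and Sipa1 (both 0.94), and for Anxa11 the unnamed gene ENSMUSG00000095041 (0.94), Mxra8 (0.91) and Scara3 (0.90).

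The wider annexin and S100 families held further genes that were higher in nlsYAP5SA mice. Of the other 4 annexins only Anxa8 passed the filter, and it was called higher with a log2 fold change of 1.44 (adjusted p = 0.00249, edgeR), with 0.285 to 0.502 CPM in control and 0.807 to 1.49 CPM in nlsYAP5SA mice. Anxa9, Anxa10 and Anxa13 had at most 12 counts in a library. Of 14 other S100 genes 8 were tested, 2 were called higher and 1 lower, beside 7.36% and 3.44% of all genes tested. S100a4, a metastasis-associated gene, rose by 1.48 on the log2 scale (adjusted p = 6.39e-05, edgeR), with 1.38 to 2.30 CPM in control and 4.52 to 6.05 CPM in nlsYAP5SA mice. S100a6, whose product binds ANXA11, rose by 1.18 on the log2 scale (adjusted p = 0.000146, edgeR), with 6.54 to 10.9 CPM in control and 15.6 to 23.1 CPM in nlsYAP5SA mice. S100b, an astrocyte and oligodendrocyte gene, fell by 0.35 on the log2 scale (adjusted p = 0.0163, edgeR). S100a16, S100a1 and S100a13, with log2 fold changes of -0.15, 0.13 and -0.09, were not called, and the inflammatory genes S100a8 and S100a9 had at most 7 counts in a library.

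Among genes that work with annexin A2 and S100A10, Ahnak, a giant scaffold protein bound by their complex, was called higher at a log2 fold change of 1.44 (adjusted p = 0.000478, edgeR), with 20.1 to 42.5 CPM in control and 57.9 to 102 CPM in nlsYAP5SA mice. Kcnk3, a potassium channel that S100A10 binds, was called lower at -0.29 (adjusted p = 0.0169, edgeR). Hltf, Asic1 and Trpv6 were not called, at -0.01, -0.16 and -0.43. Among genes of plasminogen activation, Plaur, the urokinase receptor, rose by 1.24 and Plat, tissue plasminogen activator, by 0.49 on the log2 scale (adjusted p = 0.0116 and 0.00591, edgeR). Plau, the urokinase itself, was not called, with a log2 fold change of 0.05, and Plg, plasminogen, had at most 4 counts in a library.

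Phosphatidylserine, which annexins bind, is also read by bridging proteins and receptor kinases that mark dying cells for uptake. Of these 6 genes 4 were called higher and 1 lower, beside 7.36% and 3.44% of all genes tested. Only Gas6 was also called in both fits that take Y-linked RNA into account, given below. The bridging ligands Gas6 and Pros1 rose by 0.56 (adjusted p = 2.74e-05, edgeR) and 0.59 (adjusted p = 0.00367), with Gas6 at 73.2 to 84.4 CPM in control and 107 to 116 CPM in nlsYAP5SA mice. Their receptors Mertk and Axl rose by 0.90 (adjusted p = 0.0186, edgeR) and 0.56 (adjusted p = 0.00129), while Tyro3 was not called at -0.08. Mfge8, a bridge to integrins, fell by 0.21 (adjusted p = 0.047, edgeR). Of 5 membrane repair genes Capn2, a calcium-dependent protease, was called higher at 0.26 (adjusted p = 0.00367, edgeR), and Capn1, Chmp4b, Pdcd6ip and Dysf were not. The annexin partners Pdcd6 and Sri were not called, at 0.04 and 0.04, and none of the 3 formyl peptide receptor genes passed the filter, with at most 11 counts of Fpr1 and 5 of Fpr2 in a library and 0 of Fpr3 in all 13.

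Over these 44 further genes of the annexin and S100 families and their partners, 31 were tested, 12 were called higher and 3 lower between nlsYAP5SA and control mice, beside the 7.36% and 3.44% of all genes given above. Their median log2 fold change was 0.05. Between nlsYAP5SA and C57BL/6 mice 8 of 31 were called higher and 1 lower, and between C57BL/6 and control mice 0 of 30 were called by edgeR, also 0 by DESeq2's Wald test, and 1, Plat, at an unadjusted p of 0.05 or less. The 8 included S100a4, S100a6, Ahnak, Gas6, Pros1, Axl and Capn2. Between C57BL/6 and control mice at least 591 of the 16546 genes tested had an unadjusted p of 0.05 or less.

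The counts of further genes called between nlsYAP5SA and control mice were smaller where Y-linked RNA was taken into account, either with the covariate or with fewer mice. With the Y-linked covariate 7 were called higher and 0 lower, and among mice with Y-linked RNA alone 5 and 0. The calls over all genes also fell in these fits, from 1761 to 542 and 334. The calls of S100a4, S100a6, Ahnak and Gas6 remained in both fits. Anxa8 and Axl were called with the covariate (adjusted p = 0.0414 and 0.0376, edgeR) but not among mice with Y-linked RNA alone (adjusted p = 0.0914 and 0.0995). Plaur, Plat, Pros1, Mertk and Capn2 were called in neither, with log2 fold changes of 0.86, 0.35, 0.52, 0.53 and 0.20 under the covariate. The genes called lower, S100b, Kcnk3 and Mfge8, had log2 fold changes of -0.38, -0.27 and -0.16 under the covariate and were not called (adjusted p = 0.107, 0.188 and 0.46, edgeR). With a block for the replicate number 11 genes were called higher and 0 lower, and in the fit of all 13 samples 12 were called higher and 1, Kcnk3, lower. Between nlsYAP5SA and C57BL/6 mice, 1 further gene was called higher and 0 lower among mice with Y-linked RNA alone, 5 and 0 without C57BL/6 mouse 1, and 0 in either direction with the replicate block. Over all genes these fits called 47, 401 and 26 in the same order, against 1061 in the main fit.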

How the data were processed

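The authors trimmed reads of mRNA libraries (KAPA mRNA HyperPrep) with CutAdapt 1.5, mapped them with STAR to GRCm38 and deposited estimated counts per gene from RSEM 1.3.0, not normalised. The notes of the submitters list STAR 2.2.2a, while the methods of the authors name a different version of STAR. The strand setting is not given in the sources used here. RSEM divides reads that match several genes, and 12.4% to 13.3% of the deposited estimated counts in a sample are not whole. They were rounded for the tests.

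All 13 samples were used and grouped by their labels. Counts were scaled with TMM and kept by filterByExpr (minimum count 10, minimum total 15) in edgeR 4.0.16 under R 4.3.3, and tested two-sided between the groups compared with edgeR's quasi-likelihood test at a Benjamini-Hochberg adjusted p of 0.05, the threshold of the authors. Totals were 20871566 to 25524349 counts per sample. Counts are reads, so their precision covers counting error only. Log2 ratios of counts, with a pseudocount of 0.5 counts, were compared by exact permutation tests written in Python 3.11.15 with NumPy 2.4.6. Likeness used log2 (CPM + 0.5) with a minimum mean of 50 counts per gene. The scripts were tested on simulated data.

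Alternatives were DESeq2's size factors, library size alone, no filter, at least 10 counts in every sample, DESeq2 1.42.0, a fit of all 13 samples, a block for the replicate number, covariates for Ttr or for 4 Y-linked genes, a GC and length offset, leaving out each mouse, and a ratio pseudocount of 5 counts. The short-transcript share as a covariate and a fit of the mice with at least 1 CPM of Y-linked RNA alone were added after the data were seen. Members, gene lists and tests were chosen with earlier results of these data known. Named were all 10 genes, the called genes of the partner lists with up to 3 uncalled genes of highest mean count per list, and the 3 genes most like each called member; Trpv6, Fpr1, Fpr2, S100a8, S100a9 and the other uncalled genes were named in addition. Of the genes this rule names, 2 are not reported here one by one. Sequences are from RefSeq (GRCm38.p6), and gene positions and lengths from GENCODE M21, a later release than the authors' Ensembl 86.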

Additional observations from a re-analysis of the deposited data

Results flagged for a closer look

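Among the 20 sets of 5 values (10 genes in the control and nlsYAP5SA mice), 2 held a mouse that stood apart by Dixon's criterion, whose critical value for 5 samples is 0.71. Chance gives about 1 such set in 20. Anxa2 was lowest in nlsYAP5SA mouse 3, at 23.5 CPM, with a gap to the next mouse of 0.78 of the range of the group. Without this mouse Anxa2 was still called higher in nlsYAP5SA than in control mice. Anxa11 was highest in control mouse 4, at 8.82 CPM, with a gap of 0.793 of the range, and this mouse still lay below every nlsYAP5SA mouse. Groups of 3 were not examined.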

How the results depend on the processing

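Between nlsYAP5SA and control mice, Anxa1, S100a11, Anxa3 and Anxa2 were called higher in all 22 alternative fits. The count of 1761 genes called fell to 542 with the Y-linked covariate and to 334 among mice with Y-linked RNA alone, chosen after seeing the data, both with 0 members called lower, and rose to 2922 with the short-transcript share, chosen after seeing the data. The share of these calls that were higher was 68.1%, 60.6% with the GC and length offset, 55.4% with the short-transcript share, 87.8% with the Y-linked covariate and 92.2% among mice with Y-linked RNA alone.

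Between C57BL/6 and control mice, 28 genes were called, 16 with at least 10 counts in every sample, 59 with DESeq2, 44 in the fit of all 13 samples, 43 with the GC and length offset and 58 with the short-transcript share. In that comparison, where no member was called, log2 fold changes near 0 changed sign: Anxa5 was -0.021 and Anxa11 -0.002 with library size alone, Anxa5 was -0.006 without a filter, -0.004 with Ttr and -0.017 with the GC and length offset, and with the Y-linked covariate Anxa5 was -0.058, Anxa7 -0.011, Anxa11 -0.039 and S100a11 -0.045. Leaving out single mice gave -0.049 to 0.041 for Anxa3, -0.064 to 0.029 for Anxa5, -0.012 to 0.089 for Anxa7, -0.044 to 0.076 for Anxa11 and -0.033 to 0.267 for S100a11.

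Between nlsYAP5SA and C57BL/6 mice, 1061 genes were called, 1596 with DESeq2, 1720 with the GC and length offset, 2153 with the short-transcript share, 47 among mice with Y-linked RNA alone (1 member higher, 0 lower) and 401 (without C57BL/6 mouse 1) to 1757 (without C57BL/6 mouse 3) when a mouse was left out, with 509 without nlsYAP5SA mouse 5, 581 without C57BL/6 mouse 2, 636 without nlsYAP5SA mouse 1 and 645 without nlsYAP5SA mouse 2. The count of members called lower was 0 to 1 when a mouse was left out. Anxa7, not called, changed sign to 0.023 with library size alone, 0.001 without a filter, 0.002 in the fit of all 13 samples, 0.024 with the short-transcript share and 0.107 among mice with Y-linked RNA alone, and ran from -0.076 to 0.057 when a mouse was left out. Anxa11 was called in 7 of 20 alternatives.

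The replicate numbers did not pair the mice: same-numbered mice correlated at -0.31 to 0.31 between nlsYAP5SA and control mice, and 2 of 10 correlated best with their own number. For C57BL/6 against control mice the values were -0.02 to 0.49 with 3 of 6, and for nlsYAP5SA against C57BL/6 mice -0.27 to 0.07 with 0 of 6. With the replicate block 1239 genes, 5 members higher and 1 lower were called between nlsYAP5SA and control mice. Between C57BL/6 and control mice the block gave 15 genes, with Anxa3 at 0.071, and between nlsYAP5SA and C57BL/6 mice, with 3 numbers in common, it gave 26 genes and 0 members in either direction.

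The log2 ratio of S100a11 to Anxa1 differed by -1.139 to -0.815 between nlsYAP5SA and control mice when a mouse was left out. The cause of these changes was not tested. Among the 10 genes Anxa1 and Anxa4 had the lowest counts in control mice, 45 to 63 and 67 to 87 per library. The largest standard error between nlsYAP5SA and control mice was that of S100a10, 0.18. The C57BL/6 comparisons are limited by 3 mice.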
